A study of Mus musculus with 6 samples.

Results

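The genes described are 10 genes of hepatocyte proliferation and DNA replication: Ccnd1, Cdkn1a, Mcm2, Mcm3, Mcm5, Mcm6, Pcna, Mki67, Top2a and Ccnb1. Every probe set annotated to exactly 1 of these symbols was taken, which gave 17 probe sets for 9 of the 10 genes, of 17097 genes represented on the array. No probe set here was annotated to Ccnb1, so it has no value. The values come from liver RNA of Nrg4 knockout mice (3 arrays) and wild-type mice (3 arrays), both labelled C57BL/6, which were put on a high-fat diet at 3 months of age, kept on it for 8 weeks and sampled in the random fed state. Nrg4 encodes neuregulin 4, a secreted protein that signals through ErbB receptors. Each array carried RNA of a pool of its own. The sources used here give neither the pool size, nor the sex of the mice, nor how the Nrg4 allele was made, so p-values describe the spread between pools. The tissue is whole liver and not isolated hepatocytes: fewer cells of a type and less RNA per cell cannot be told apart, and a value cannot be assigned to hepatocytes.

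Adult hepatocytes are mostly quiescent and re-enter the cell cycle after loss of tissue or injury. Cyclin D1, the product of Ccnd1, activates CDK4 and CDK6 in G1 in response to growth factors, which leads to phosphorylation of the retinoblastoma protein and release of E2F factors. E2F factors then drive genes of DNA replication, among them those of the MCM helicase and of PCNA. The protein p21, encoded by Cdkn1a, inhibits cyclin-dependent kinases and binds PCNA, and it is a target of p53. Mki67 and Top2a are expressed in cycling cells, and Ccnb1 encodes the mitotic cyclin B1.

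Knockout and wild-type values lay apart in 3 genes of the set, and none of the 3 passed limma's test at adjusted p under 0.05. Cdkn1a and Mcm6 were higher in all knockout arrays, as were 11.7% of the 12475 genes tested. Mcm5 was lower in all knockout arrays, as were 3.93%. The promoter windows of these 3 genes are printed here as a description of their letters, and whether the letters bear on the values was not tested. They are RefSeq windows of build GRCm38.p6 that run from 250 bases before to 50 bases after an annotated start, 5′ to 3′ on the strand of the gene. The capitals mark exact matches, on either strand, to TTTCCCGC, TTTGGCGC, TTTCGCGC or TTTGCCGC (E2F), to CCAAT (bound by NF-Y) or, in Cdkn1a, to a pair of CATG cores of the p53 element that stand 6 bases apart. The Cdkn1a window belongs to the upstream of 2 annotated starts.
Cdkn1a (chr17:29090729-29091028, + strand): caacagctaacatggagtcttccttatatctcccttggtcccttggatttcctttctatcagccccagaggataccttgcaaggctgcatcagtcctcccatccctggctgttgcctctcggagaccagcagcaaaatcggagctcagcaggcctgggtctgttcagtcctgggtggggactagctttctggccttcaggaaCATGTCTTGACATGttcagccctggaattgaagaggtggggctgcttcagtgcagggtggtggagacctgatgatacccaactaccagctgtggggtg
Mcm5 (chr8:75109259-75109558, + strand): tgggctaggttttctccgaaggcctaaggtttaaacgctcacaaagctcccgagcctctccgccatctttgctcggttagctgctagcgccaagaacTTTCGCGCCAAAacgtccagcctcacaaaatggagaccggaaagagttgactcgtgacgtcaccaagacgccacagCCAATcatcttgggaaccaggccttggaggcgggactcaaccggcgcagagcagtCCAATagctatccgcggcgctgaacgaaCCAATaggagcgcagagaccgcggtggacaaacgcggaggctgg
Mcm6 (chr1:128359656-128359955, - strand): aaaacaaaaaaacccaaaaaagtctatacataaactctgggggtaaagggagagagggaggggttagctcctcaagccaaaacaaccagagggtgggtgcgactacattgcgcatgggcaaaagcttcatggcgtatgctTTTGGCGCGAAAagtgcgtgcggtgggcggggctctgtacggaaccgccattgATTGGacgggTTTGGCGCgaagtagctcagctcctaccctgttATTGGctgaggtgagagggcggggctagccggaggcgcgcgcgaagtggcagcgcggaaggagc

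The CATG pair of Cdkn1a, searched for after the values were seen, began at position -48 from the upstream annotated start. The window of the other Cdkn1a start held none of the letters searched for. Such a pair was present in 0.712% of the 32851 windows of the table, and among the genes described in Cdkn1a alone. E2F letters were present in Mcm3, Mcm5 and Mcm6 and in 2.26% of all windows. In Mcm5 the matches on the opposite strands overlap, beginning at -153 and -149. In Mcm6 a like overlapping pair began at -110 and -106, and a further match at -47. CCAAT was present in 8 of the 9 genes with a window and in 37.4% of all windows. TTTGAA, the cell cycle homology region of mitotic genes, was found in Mcm2, Mki67 and Top2a and in 17.9% of all windows. No window was listed for Ccnd1. A match is a description of letters and not a binding site.

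The signal is given as log2 RMA values, in which a difference of 1 is a doubling, and a gene is represented by its probe set of highest mean over the 6 arrays. A probe set was called near background when that mean lay under 2.66, the 40th percentile of all probe set means. By this limit 5 of the 17 probe sets were near background: the only one of Mki67, another one of Mcm3, another one of Mcm5 and both others of Top2a. All 17 exceeded the median of the 23 controls for nonspecific binding, 1.65 to 1.76, in all 6 arrays. The 95th percentile of these controls was 2.49 to 2.91. The main probe sets of Ccnd1, Cdkn1a, Mcm2, Mcm5, Mcm6 and Pcna exceeded it in all 6 arrays, those of Mcm3 and Top2a in 5, and that of Mki67 in 1. The highest of the 23 controls stood at 5.29 to 5.84. Of the main probe sets, only those of Ccnd1 and Pcna exceeded that highest control. The limit left 12475 genes to be tested, with 8 of the 10 genes described among them.

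Over all genes tested, 5 passed limma's test at adjusted p under 0.05 (0.0401%), and none of the 8 genes described did. At an unadjusted p under 0.05 there were 3 of the 8, against 9.55% of all genes tested. The 3 were Cdkn1a, Mcm5 and Mcm6. All knockout values exceeded all wild-type values in 2 of the 8 and in 11.7% of all genes tested. All knockout values lay below all wild-type values in 1 of the 8 and in 3.93% of all genes tested. The median log2 change of the 8 genes was -0.03, against 0.04 over all genes tested. By count 3 of them were higher and 5 lower, against 7911 higher and 4564 lower over all genes tested. Nrg4 itself was 2.56, 2.43 and 2.64 in the knockout arrays, against 4.94, 4.79 and 4.77 in the wild-type arrays. None of the 10 genes lies on its chromosome, chromosome 9.

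**Figure D1:**
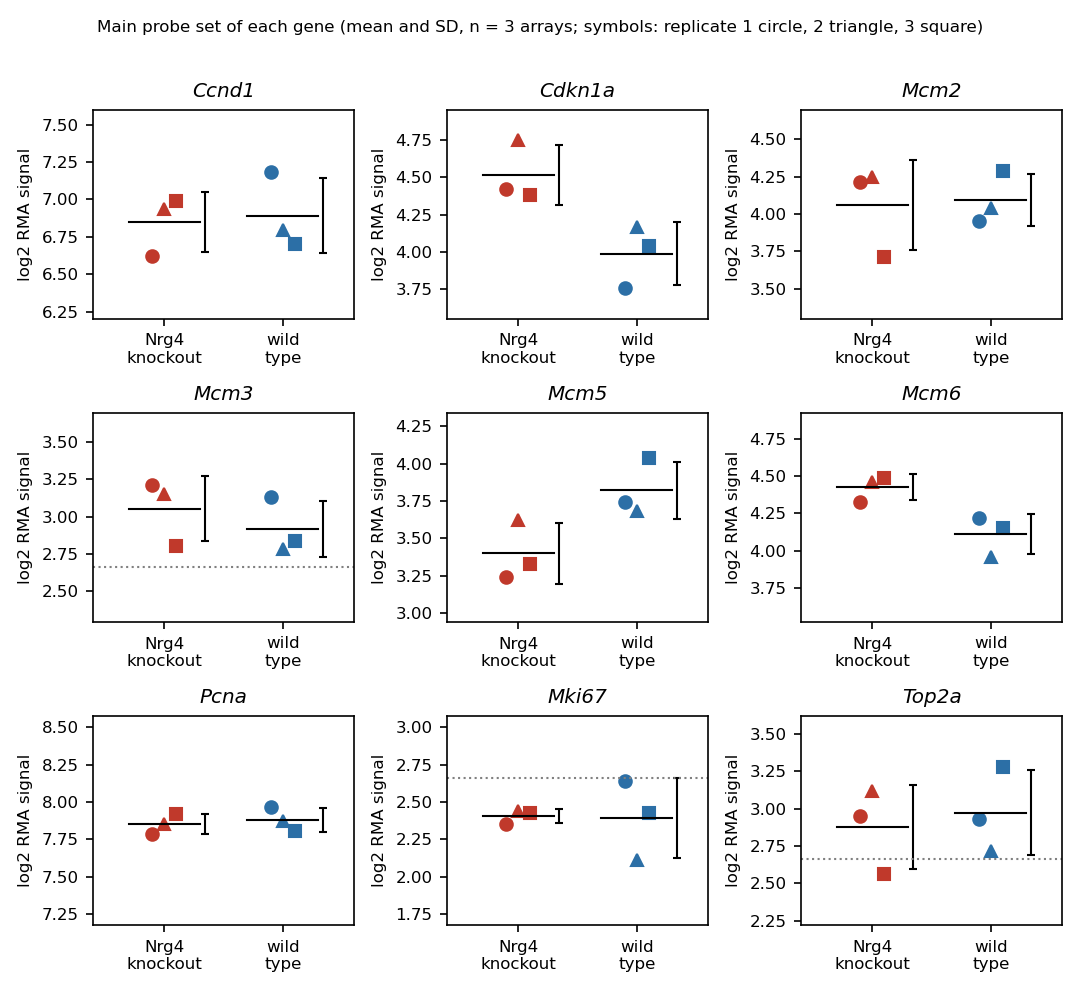
The log2 RMA signal of the main probe set of each gene is plotted for the 3 Nrg4 knockout arrays (red) and the 3 wild-type arrays (blue), with the group mean as a line and the SD as a bar beside it; every panel spans the same number of log2 units, and the dotted line marks the limit of 2.66 where it falls in the panel. The groups stand apart for Cdkn1a, Mcm5 and Mcm6 and overlap for the others.

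Cdkn1a, which encodes the kinase inhibitor p21, was 4.42, 4.75 and 4.38 in the knockout arrays, against 3.76, 4.17 and 4.04 in the wild-type arrays. The lowest knockout value lay 0.22 above the highest wild-type value, a gap smaller than the range within either genotype, 0.36 in the knockout and 0.41 in wild type. The means were 4.52 ± 0.20 in the knockout and 3.99 ± 0.21 in wild type (SD, n = 3 arrays each), a 1.44-fold higher signal. The log2 change was 0.53 with a 95% interval of 0.21 to 0.84, and limma's adjusted p was 0.309. It ranked 183rd of all genes tested by p.

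A second probe set of Cdkn1a gave the same order. It was 4.69, 4.52 and 4.45 in the knockout arrays, against 3.66, 3.92 and 4.03 in the wild-type arrays, and here the gap of 0.42 exceeded the range within each genotype. Its log2 change was 0.68 (95% interval 0.42 to 0.94) in a limma fit of every probe set on its own. In that fit 13 of 45037 probe sets passed (0.0289%), and this one did not (adjusted p = 0.114). The probe sets of Cdkn1a followed each other over the 6 arrays, with a Pearson correlation of 0.88 (Spearman 0.89). Both are readings of the same 6 RNA pools and are not separate replicates.

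Ccnd1, the G1 cyclin that takes up growth factor signals, had 3 probe sets, all above the limit. The main one was 6.62, 6.94 and 6.99 in the knockout arrays, against 7.18, 6.79 and 6.70 in the wild-type arrays, so the groups overlapped. Its log2 change was -0.04 with a 95% interval of -0.38 to 0.30 (limma adjusted p = 0.95). The second probe set stood at 0.03 and the third at -0.22 (95% interval -0.58 to 0.15). The direction turned without knockout replicate 1, to 0.07, and without wild-type replicate 1, to 0.10. A change of cyclin D1 RNA within these intervals was not detectable with 3 arrays per genotype.

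Mcm2, Mcm3, Mcm5 and Mcm6 encode subunits of the MCM2-7 helicase, a ring of 6 different proteins that is loaded at origins in G1 and unwinds DNA in S phase. Their log2 changes had both signs. Mcm5 was 3.24, 3.63 and 3.33 in the knockout arrays, against 3.74, 3.68 and 4.04 in the wild-type arrays. All knockout values lay below the wild-type values, but by a gap of 0.06 only. The means were 3.40 ± 0.20 in the knockout and 3.82 ± 0.19 in wild type (SD, n = 3 arrays each). The log2 change was -0.42 (95% interval -0.73 to -0.12, limma adjusted p = 0.376). The other probe set of Mcm5, near background, stood at -0.07 (95% interval -0.28 to 0.14), and its values overlapped.

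Mcm6 was 4.33, 4.46 and 4.49 in the knockout arrays, against 4.22, 3.96 and 4.15 in the wild-type arrays. The groups lay 0.11 apart. The means were 4.42 ± 0.09 in the knockout and 4.11 ± 0.13 in wild type (SD, n = 3 arrays each), a 1.25-fold higher signal. The log2 change was 0.32 (95% interval 0.09 to 0.54, limma adjusted p = 0.374), and a single probe set represents the gene.

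Mcm2 was 4.22, 4.25 and 3.71 in the knockout arrays, against 3.95, 4.04 and 4.29 in the wild-type arrays. The third knockout array was the lowest of all 6, and the groups overlapped. The log2 change was -0.03 (95% interval -0.39 to 0.32, limma adjusted p = 0.963). A second probe set of Mcm2 stood at 0.12 and correlated only weakly with the main one over the 6 arrays (Pearson 0.19, Spearman 0.43). Mcm3 was 3.21, 3.15 and 2.80 in the knockout arrays, against 3.13, 2.78 and 2.84 in the wild-type arrays. Its log2 change was 0.14 (95% interval -0.18 to 0.45, limma adjusted p = 0.788). The other probe set of Mcm3, near background, stood at -0.01. The subunits that complete the ring, Mcm4 and Mcm7, were looked at for that reason. Mcm4 had a log2 change of 0.34 (SE 0.18) with overlapping groups, and Mcm7 of -0.15 (SE 0.09) with no overlap. Their limma adjusted p-values were 0.581 and 0.597.

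Pcna, the sliding clamp of the replicative polymerases, was 7.79, 7.85 and 7.92 in the knockout arrays, against 7.96, 7.87 and 7.81 in the wild-type arrays. The groups overlapped, and the SDs were 0.07 in the knockout and 0.08 in wild type. The log2 change was -0.03 with a 95% interval of -0.23 to 0.17 (limma adjusted p = 0.946).

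Mki67, which encodes the proliferation antigen Ki-67, was 2.35, 2.44 and 2.43 in the knockout arrays, against 2.64, 2.11 and 2.43 in the wild-type arrays. All 6 values lay under the limit of 2.66, and the gene was not tested. The difference of the means was 0.01, from 2.41 ± 0.05 in the knockout and 2.39 ± 0.26 in wild type (SD, n = 3 arrays each). Near background a difference in Mki67 RNA was not detectable in either direction.

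Top2a, the topoisomerase that untangles replicated chromosomes, was 2.95, 3.12 and 2.56 in the knockout arrays, against 2.93, 2.72 and 3.28 in the wild-type arrays. The groups overlapped, and the log2 change was -0.10 (95% interval -0.50 to 0.31, limma adjusted p = 0.894). The other probe sets were near background and stood at 0.11 and 0.20. The last was 2.35, 2.34 and 2.50 in the knockout arrays, against 2.19, 2.21 and 2.19 in the wild-type arrays. Its groups did not overlap, but all its values lay under the limit and it did not pass in the fit of every probe set (adjusted p = 0.597). Its correlation with the main probe set over the 6 arrays was -0.52 (Spearman -0.37), so the Top2a probe sets do not give 1 common reading.

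**Figure D2:**
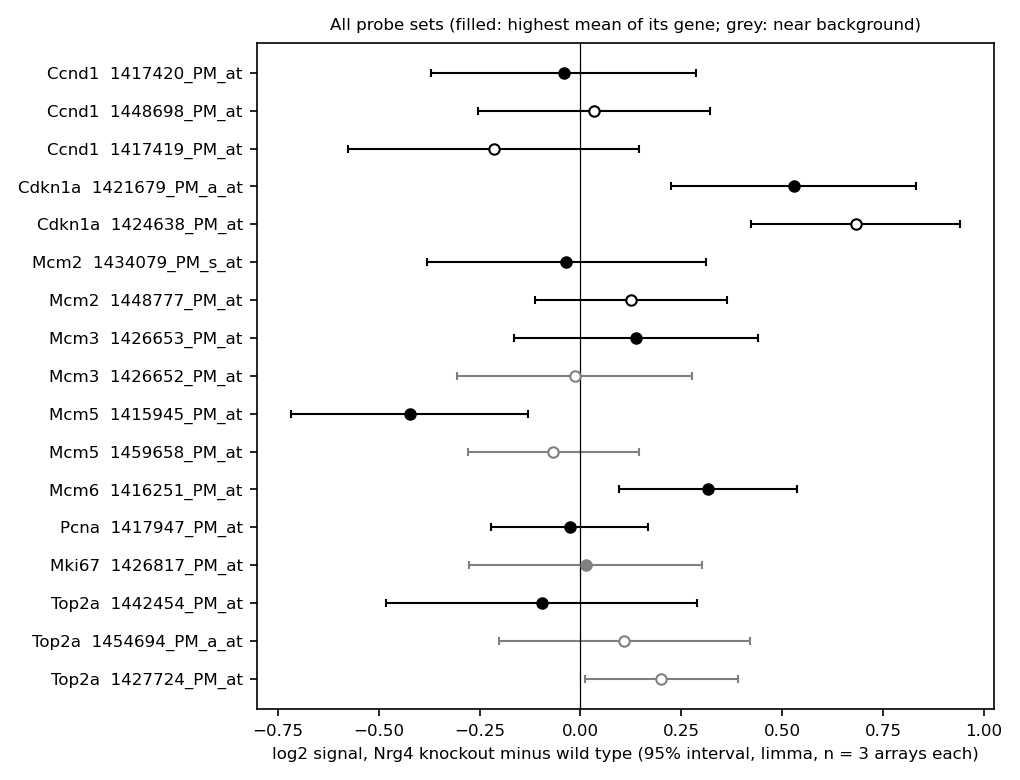
The log2 difference, Nrg4 knockout minus wild type, is plotted with its 95% interval for all 17 probe sets, from a limma fit of every probe set on its own; filled points are the probe set of highest mean of a gene and grey marks those near background. The intervals of both Cdkn1a probe sets and of the main probe sets of Mcm5 and Mcm6 lie off 0, and so does that of a Top2a probe set near background, before any adjustment for the number of probe sets.

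Over the 6 arrays the main probe sets of Ccnd1 and Pcna varied alike, with a Pearson correlation of 0.94 (Spearman 0.94). Both were highest in wild-type replicate 1 and lowest in knockout replicate 1. The third Ccnd1 probe set had the same highest and lowest arrays and correlated with the main one at 0.86. The second was highest in wild-type replicate 1 but lowest in wild-type replicate 3, and correlated with the main one at 0.65. The genes most like Ccnd1 among all genes tested were 1810034E14Rik at 0.998, Topors at 0.991 and Tpd52l1 at 0.990. Most like Cdkn1a were Capn2 at 0.997, Acly at 0.986 and Ggps1 at 0.981. Acly, which encodes ATP citrate lyase of fatty acid synthesis, was 6.56, 6.70 and 6.61 in the knockout arrays, against 6.32, 6.47 and 6.44 in the wild-type arrays. Its log2 change was 0.21 and did not pass (limma adjusted p = 0.511). Of all genes tested, 11.7% were likewise higher in all knockout arrays. The mean of the 4 Mcm genes was most like Cmtm6 at 0.988, Kcnt1 at 0.987 and Fgd5 at 0.982, and it correlated with the main Top2a probe set at 0.94. With its own genes it correlated at 0.81 for Mcm2, 0.59 for Mcm3, 0.45 for Mcm5 and 0.16 for Mcm6, so it does not stand for each of them. These are Pearson correlations over n = 6 arrays of the same hybridisations, and they are given as a description. Those with genes outside the set were picked as the highest among 12475 genes.

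The wider cell cycle was described by lists of genes beside the 10, and no member of any of these lists passed limma's test over all genes. Of 43 genes of origin licensing and the replication fork, 38 were tested, 24 higher and 14 lower, with a median log2 change of 0.06. Prim2, the large primase subunit, was 3.50, 3.21 and 3.29 in the knockout arrays, against 3.88, 3.74 and 3.94 in the wild-type arrays. Its groups lay apart (log2 change -0.52, SE 0.11, limma adjusted p = 0.183). Another Prim2 probe set, of mean signal 2.81 and so just above the limit of 2.66, stood at 0.09. Timeless, a fork protection factor, had a log2 change of 0.33 and Rfc3, of the clamp loader, of 0.34. Another probe set stood at -0.23 for Timeless (mean signal 2.70, just above the limit) and at -0.01 for Rfc3 (mean signal 3.21). In this list the groups did not overlap in 4 of the 38 genes with the knockout higher, against 11.7% of all genes tested, and in 4 of the 38 with it lower, against 3.93% of all genes tested.

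Of 19 genes of nucleotide supply and chromatin assembly, 15 were tested, 8 higher and 7 lower (median 0.04). Ung, a uracil DNA glycosylase, was 4.59, 4.69 and 4.45 in the knockout arrays, against 4.85, 5.25 and 5.21 in the wild-type arrays. That is a log2 change of -0.53 (SE 0.13, limma adjusted p = 0.247). Pclaf, which encodes a PCNA-binding protein, and Slbp, which binds histone mRNA, each stood at 0.21. Another Slbp probe set, just above the limit at a mean signal of 2.71, stood at 0.09.

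Of 25 cyclins, kinases and E2F factors of the G1 to S transition, 22 were tested, 15 higher and 7 lower (median 0.07). E2f8, a repressor of the E2F family, was 5.49, 5.24 and 5.23 in the knockout arrays, against 5.73, 5.58 and 5.85 in the wild-type arrays. Its log2 change was -0.41 (SE 0.11, limma adjusted p = 0.322). Mycn stood at -0.34 and E2f5 at 0.16. Another probe set stood at -0.04 for Mycn and at 0.09 for E2f5.

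Of 59 mitotic genes, 17 were below the limit and 40 were tested, 30 higher and 10 lower (median 0.07). Those with the smallest p were Cks1b, a kinase subunit, at 0.38, Cdc20, an activator of the anaphase-promoting complex, at 0.49 and Kif4, a chromosome kinesin, at 0.29. None had a limma adjusted p under 0.454. Cdc20 was 2.75, 3.31 and 3.64 in the knockout arrays, against 2.89, 2.52 and 2.81 in the wild-type arrays, with knockout replicate 1 among the wild-type values. Another Cks1b probe set stood at 0.05.

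Among the CDK inhibitors other than Cdkn1a, 4 of 7 were tested, 2 higher and 2 lower. Cdkn2c, which encodes the CDK4 and CDK6 inhibitor p18, was 5.02, 4.61 and 4.83 in the knockout arrays, against 4.31, 4.50 and 4.47 in the wild-type arrays. Its groups did not overlap (log2 change 0.40, SE 0.12, limma adjusted p = 0.350). Cdkn1c stood at 0.17 and Cdkn1b, which encodes p27, at -0.07. Another Cdkn1b probe set, just above the limit at a mean signal of 2.75, stood at -0.20. Cdkn2a, Cdkn2b and Cdkn3 were below the limit.

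The p53 targets other than Cdkn1a were split: of 18 tested, 9 were higher and 9 lower (median -0.003). Ddit4, a stress-induced inhibitor of mTORC1 signalling, was 4.56, 5.48 and 4.97 in the knockout arrays, against 3.99, 4.50 and 4.15 in the wild-type arrays. Its groups did not overlap (log2 change 0.79, SE 0.22, limma adjusted p = 0.336). Polk, a translesion polymerase, stood at 0.24 and Zmat3 at 0.22, and another Polk probe set at -0.13. Mdm2 and Ccng1, targets of p53 that were picked after their values were seen, stood at -0.02 and -0.19.

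Inputs to cyclin D1 were described by lists as well. Of 16 receptors, ligands and response genes of ErbB and other growth factors that were tested, 5 were higher and 11 lower (median -0.10). The median rested on single arrays: leaving out knockout replicate 1 gave -0.01, leaving out wild-type replicate 1 gave 0.04, and array weights gave 0.02. Etv5 stood at 0.42 and Erbb2 at 0.24. Hgf, the hepatocyte growth factor, was 2.46, 2.58 and 2.96 in the knockout arrays, against 3.03, 3.05 and 3.09 in the wild-type arrays (log2 change -0.39, limma adjusted p = 0.409). Another Hgf probe set, of mean signal 2.80, stood at -0.003. Of 13 beta-catenin targets of liver, 4 were higher and 9 lower (median -0.05), with Tbx3 at -0.21, Rhbg at 0.25 and Cyp1a2 at -0.26 of the smallest p. Another Tbx3 probe set stood at -0.32.

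**Figure D3:**
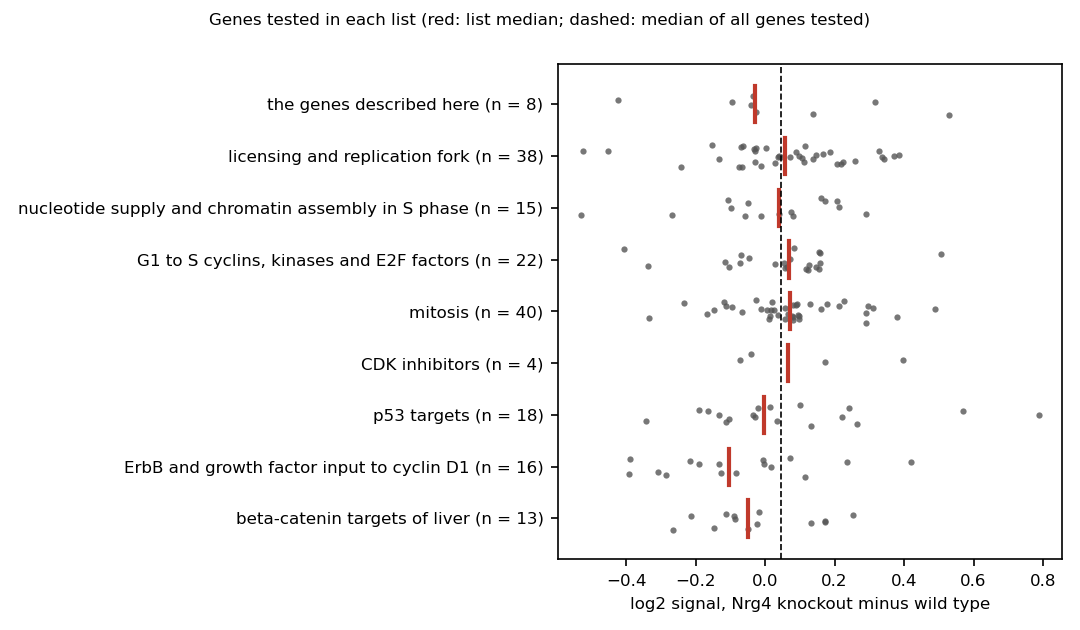
The log2 difference, Nrg4 knockout minus wild type, is plotted for each gene tested, by list, with the list median in red and the median of all genes tested, 0.04, as a dashed line. The list medians lie between -0.10 and 0.07, and single genes lie on both sides in each list.

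The cell types of the liver were checked by their markers, since proliferating cells of whole liver need not be hepatocytes. Of 14 hepatocyte markers, 13 were above the limit, and their mean level was 11.25 to 11.39 in the knockout arrays and 11.25 to 11.33 in the wild-type arrays. Pck1 was the marker under the limit. Cyp3a11 stood at 0.22, Fgb at 0.11 and Fga at 0.07. Most markers of several other cell types had a higher mean in the knockout arrays, as did 63.4% of all genes tested. None of these markers passed. Of 16 macrophage markers 15 were higher (median 0.33), and their mean level was 5.86 to 6.46 in the knockout arrays and 5.75 to 5.98 in the wild-type arrays. Of 12 sinusoidal endothelial markers 10 were higher (median 0.28), at mean levels of 5.74 to 6.08 in the knockout arrays and 5.40 to 5.78 in the wild-type arrays. In knockout replicate 1 the macrophage and endothelial mean levels were 5.86 and 5.74, among the wild-type values. Of 11 stellate and matrix markers 10 were higher (median 0.18), at 5.40 to 5.58 in the knockout arrays and 5.16 to 5.28 in the wild-type arrays. Of 10 lymphocyte markers 8 were higher (median 0.09), at 3.33 to 3.55 in the knockout arrays and 3.25 to 3.34 in the wild-type arrays.

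Erythroid markers stood at a median of -0.09 over 5 genes and cholangiocyte markers at 0.16 over 3. The erythroid mean level was 6.38 to 6.61 in the knockout arrays and 6.44 to 6.56 in the wild-type arrays. The cholangiocyte mean level was 3.08 to 3.42 in the knockout arrays and 3.01 to 3.28 in the wild-type arrays. Markers with no test, under the limit or with no probe set, included Cd3g, Cd2 and Gzma of lymphocytes and Krt7 and Krt19 of cholangiocytes. The markers of smallest p were Adgre1, Mpeg1 and Cd5l for macrophages, Lyve1, Ptprb and Cdh5 for endothelium, and Col3a1, Vim and Dcn for the matrix. They were Gzmb, Ms4a1 and Cd4 for lymphocytes, Hba-a1, Slc4a1 and Alas2 for erythroid cells, and Sox9, Tspan8 and Epcam for cholangiocytes. Their log2 changes ran from -0.21 for Cd4 to 1.29 for Lyve1, and none passed over all genes. Other probe sets above the limit had the direction of the main one for Lyve1 (0.69), Vim (0.59 and 0.57) and Hba-a1 (0.32 and 0.39). They had the opposite direction for Ptprb (-0.23), Sox9 (-0.09) and Epcam (-0.04). That of Sox9 was just above the limit, at a mean signal of 2.73. The part of these cells in the values of Cdkn1a, Mcm5 and Mcm6 was not tested.

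**Figure D4:**
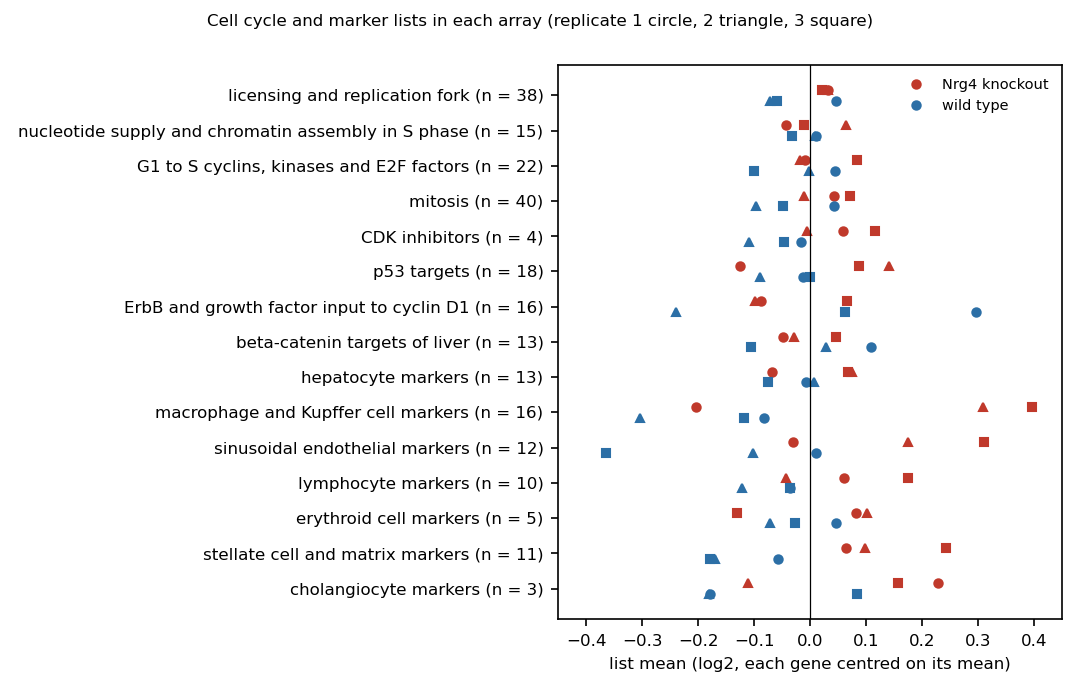
The mean of each list is plotted for each of the 6 arrays, after each gene was centred on its own mean over the arrays, with Nrg4 knockout in red above wild type in blue. The licensing list lies between 0.02 and 0.03 in the knockout arrays and between -0.07 and 0.05 in the wild-type arrays. The macrophage and endothelial lists reach 0.40 and 0.31 in knockout replicate 3. In knockout replicate 1 they stand at -0.20 and -0.03, among the wild-type values.

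RNA integrity was read from the 5′ and 3′ control probe sets of Actb and Gapdh, whose mean difference, 5′ minus 3′, was -1.31, -0.70 and -0.65 in the knockout arrays, against -0.95, -0.78 and -0.96 in the wild-type arrays. On average this measure was nearly equal in the knockout and wild-type arrays. Adding it as a covariate could therefore hardly move a log2 change between the genotypes. With it as a covariate the log2 changes were 0.53 for Cdkn1a, -0.43 for Mcm5 and 0.32 for Mcm6, nearly those without it. None passed (limma adjusted p = 0.245, 0.307 and 0.302). Whether RNA integrity bears on the values of these genes was not tested.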

How the data were processed

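Liver RNA of 6 pools, 250 ng each, was read on Affymetrix mouse arrays of the MG-430 PM type, per the labels' protocols. The authors deposited log2 values; RMA, affy and limma stand in the submitters' processing notes, with versions and order not given in the sources used here, nor is a genome build. RMA equalises the distributions of the arrays, which reduces a shift shared by most genes. Arrays have no read depth, and their number limits the precision.

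The table held 45141 probe sets, of which 104 were controls, 28898 had 1 gene symbol and 551 several. Symbols came from the platform annotation and were updated by gene number through a RefSeq table of GRCm38.p6. Genotypes were compared in R 4.3.3 with limma 3.58.1 (moderated, two-sided test by eBayes), with Benjamini-Hochberg adjustment over all 12475 genes at or over the 40th percentile of probe set means. The fit was also run on simulated data with independent noise for each gene, and the outcome of that run is not used here. Dim genes and unnamed probe sets were left out. List members were matched by symbol or unique synonym. Genes named were the 10, the 3 of smallest p in each list, and the 3 most correlated with Ccnd1, Cdkn1a or the Mcm mean; others were picked after their values were seen, as was the search for CATG pairs. The genes and lists were chosen with earlier results of these data known. A planned comparison of MCM protein sequences was not run, as no protein table was used here. Python 3.11.15 and matplotlib 3.10.9 made the figures.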

Additional observations from a re-analysis of the deposited data

How the results depend on the processing

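No setting brought any of the tested genes described past adjusted p under 0.05, and Cdkn1a, Mcm5 and Mcm6 kept their directions in all alternatives run, with log2 changes of 0.41 to 0.68, -0.54 to -0.07 and 0.24 to 0.40 and lowest adjusted p-values of 0.114, 0.235 and 0.12. The genes called over the array, 5 as reported, numbered 8 with quantile normalization again, 3 with a filter at the 60th percentile, 29 with a variance trend, 50 with array weights, 3 with the mean of all probe sets, 12 with the 5′ to 3′ covariate, 30 at adjusted p under 0.10 and 13 for every probe set. They numbered 17 without knockout replicate 1, 2 without knockout replicate 2, wild-type replicate 1 or wild-type replicate 3, and 1 without knockout replicate 3 or wild-type replicate 2. With the replicate number as a block 2 genes passed. The labels name nothing that same-numbered pools shared but the number. Deviations of same-numbered pools from their group means correlated at -0.15, 0.03 and -0.01. Changes near 0 turned their sign: Ccnd1 to 0.0455 with array weights and 0.0333 in its second probe set, Mcm2 to 0.0449 with the mean of its probe sets and 0.1246 in its second, Mcm3 to -0.0144 and Top2a to 0.1085 in theirs. Without single arrays Ccnd1 ranged from -0.1369 to 0.1023, Mcm2 from -0.1302 to 0.1392, Pcna from -0.0641 to 0.0151 and Top2a from -0.2245 to 0.0603. The median of the nucleotide supply list, 0.04, was -0.0106 with the 60th percentile filter, -0.0101 with the mean of probe sets and -0.0076 to 0.0944 without single arrays. That of the CDK inhibitors, 0.07, was -0.0409 with the 60th percentile filter, 0.1577 with array weights and -0.0047 to 0.1434 without single arrays. That of the ErbB and growth factor list, -0.10, was 0.0189 with array weights and -0.1594 to 0.0419 without single arrays. That of the p53 targets, -0.003, turned to 0.0421 with array weights and reached 0.0614 without knockout replicate 1. The cause of these shifts was not tested. Mcm3 and Top2a were not tested with the 60th percentile filter, and signal near background limits Mki67 and the further Top2a probe sets.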

Other observations

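Of 26 genes of the cell cycle lists under the limit, which entered no test, 4 had knockout and wild-type values that lay apart (15.4%), against 10.9% of all 4622 genes without a test. They were picked after their values were seen. Cdc6, which loads the MCM ring at origins, was 1.61, 1.82 and 1.79 in the knockout arrays, against 1.96, 1.93 and 2.11 in the wild-type arrays. Ncapd2, a condensin subunit, was 2.11, 2.22 and 2.04 in the knockout arrays, against 2.47, 2.31 and 2.52 in the wild-type arrays. Birc5, which encodes survivin of the chromosomal passenger complex, was 2.02, 2.22 and 2.19 in the knockout arrays, against 1.96, 2.00 and 1.89 in the wild-type arrays. Smc2, another condensin subunit, was 2.72, 2.93 and 2.62 in the knockout arrays, against 2.56, 2.49 and 2.45 in the wild-type arrays. Controls for nonspecific binding reach a 95th percentile of 2.49 to 2.91, so these values are given without a fold.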
